A study of Mus musculus with 57 samples.

Results

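Freshly dissected salivary glands of mouse embryos were compared between embryonic day 18 (E18) and embryonic day 17 (E17). The 8 samples were chosen by their stage labels, 4 at E18 and 4 at E17, out of 24 fresh glands from E13 to E18 and 57 samples in the whole series. All 8 were wild type (WT) and untreated, and each was sequenced from total RNA of whole gland. Replicates carry the letters A to D at each stage. No label says whether the samples of a stage came from separate litters. The p-values cover only the spread among samples of the same stage, estimated over all 24 fresh glands. A difference of stage cannot be told apart from a difference of litter or dissection. The series as a whole addresses signalling by neuregulin 1 (NRG1) through its receptor ERBB3 and the kinase complex mTORC2 while the secretory end pieces of the gland are built. The comparison described here asks what changes over the last embryonic day sampled. The table held 35275 genes, of which 16521 had enough counts to be tested.

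A salivary gland begins as branching epithelial end buds in a mesenchyme that also holds nerves, vessels and immune cells. Late in gestation the end buds become acini, whose secretory cells fill with granules of salivary protein, while the ducts that drain them form lumens and begin to express ion channels and kallikreins. Progenitor division slows as cells differentiate. In whole-gland RNA, a lower level of a transcript can come from fewer cells of a type or from less of the transcript per cell, and these cannot be told apart.

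The E18 sample D stood apart from its group, and the counts over gene lists below are given with and without it. Total counts lay between 16809492 and 24515242 per sample, so depth did not set E18 D apart at 18683114. Its correlation with the other E18 samples averaged 0.945, against 0.972 to 0.974 for the others, over genes within a sample pair. The averages of the others include their pairs with E18 D. Pairs among E18 A, B and C were at 0.985 to 0.988, and pairs with E18 D at 0.942 to 0.952. Ribosomal protein genes took 18.2% of its counts, against 7.63% to 8.77% in the other E18 samples and 7.92% to 11.1% at E17, and mitochondrially encoded genes took 0.764% against 1.4% to 1.57%. Its levels followed gene length. In E18 D the median log2 ratio to the other E18 samples was 1.19 for the 188 genes with summed exons under 1 kb and -0.44 for the 2196 genes over 8 kb. Smaller trends were present elsewhere, with E17 C at 0.45 and E17 A at -0.34 for the genes under 1 kb. E18 A, B and C were at -0.28, -0.73 and -0.57 for such genes, against a mean that includes E18 D. Med12, a subunit of the Mediator complex, had 50.6 to 63.2 CPM (counts scaled to a common library total) in E18 A, B and C and 2.37 CPM in E18 D.

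**Figure D1:**
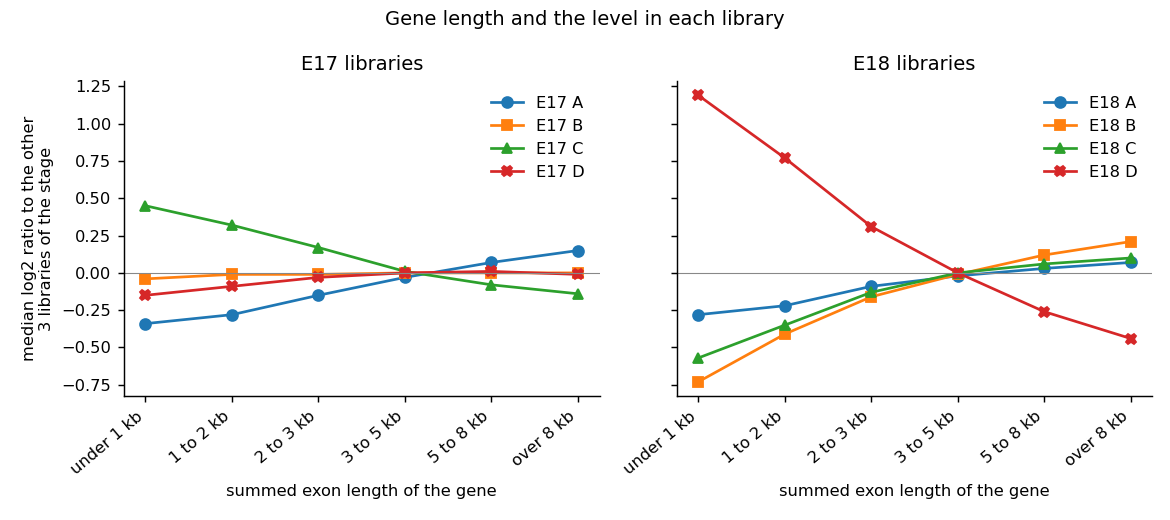
Median log2 ratio of each library to the other 3 of its stage (vertical axis) for protein-coding genes in 6 classes of summed exon length (horizontal axis), E17 on the left and E18 on the right. E18 D falls from 1.19 for the shortest class to -0.44 for the longest, the widest range of the 8 libraries. E17 C and E17 A show smaller trends of opposite sign. E18 A, B and C rise with length, against a mean that includes E18 D.

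Muscle and brown fat transcripts differed between samples of the same stage. The summed level of 18 skeletal muscle genes was 1210 CPM in E17 A and 48.7 to 78.8 CPM in the other E17 samples, and it was 1775 CPM in E18 D, 505 CPM in E18 A and 117 to 123 CPM in E18 B and C. Ucp1, the uncoupling protein of brown fat, stood at 136 CPM in E18 A and at no more than 9.64 CPM in the other 7 samples. No skeletal muscle or adipocyte marker passed the test between the stages with all samples, and without E18 D the adipocyte genes Ucp1 and Lpl did (adjusted p = 0.0429 and 0.0082). CPM here and below are scaled by the trimmed mean of M values (TMM), and they are not divided by gene length, so they are compared between samples and never between genes. Markers of the labelled tissue were present throughout: the 19 general epithelial genes summed to 5324 to 6692 CPM at E17 and to 5507 to 9691 CPM at E18, and none was at 0 in all 8 samples.

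Between E17 and E18, 976 genes rose and 1171 fell at an adjusted p under 0.05 in edgeR's quasi-likelihood test, 5.91% and 7.09% of the genes tested. Members of the list of secretory product genes were 6 of the 15 largest rises that held in all 3 fits described below. Genes for mitosis and DNA replication fell together by smaller amounts. Of the called genes, 284 that rose and 113 that fell changed by at least 1 on the log2 scale, and the median called rise was 0.65 and the median called fall -0.50. Without E18 D, 1371 genes rose and 1738 fell, 8.19% and 10.4% of the genes then tested. Shares of 5.91% and 7.09% with all samples, and of 8.19% and 10.4% without E18 D, are the background for all list counts below. With E17 and E18 fitted alone, 345 genes rose and 302 fell with E18 D, and 1200 rose and 1445 fell without it. A total of 1762 genes, 10.7%, were called in the same direction with all samples, without E18 D, and with limma voom and sample weights. The 4 values of one stage did not overlap the 4 of the other for 2427 genes, 14.7%. The split between rises and falls depended on scaling: with library totals in place of TMM factors, 450 genes rose and 3368 fell, and the median of all genes moved from 0.02 to -0.18. Smgc and Bpifa2 alone took 10.7% to 13.5% of all counts at E18 and 4.82% to 5.14% at E17.

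Genes for saliva proteins were among the largest rises, below BC002163 (6.67 on the log2 scale) and 2310057J18Rik (6.66), which are described further on. Of 23 secretory product genes tested, 11 rose and 2 fell, beside 5.91% and 7.09% of all genes, and the median log2 change of the list was 1.45 against 0.02 over all genes. Without E18 D, 11 rose and 3 fell and the median was 0.77. The list was drawn up with earlier results of these samples known, so its direction is not independent evidence.

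Car6 (chr4:150187015-150201332, mm10) encodes the carbonic anhydrase that is secreted into saliva. Its levels at E17 A to D were 153, 130.3, 130 and 169 CPM, and at E18 A to D they were 2654, 2181, 2410 and 2119 CPM. Every E18 sample exceeded every E17 sample, E18 D was the lowest of its stage, and the log2 change was 4.01 ± 0.15 (SE; adjusted p = 5.26e-15), a 16.1-fold rise. Prol1 (chr5:88317312-88328814), which encodes a proline-rich protein of saliva and tears, stood at 695, 497, 704 and 706 CPM at E17 and at 8561, 9718, 9401 and 9599 CPM at E18. The stages did not overlap and E17 B was the low sample, with a log2 change of 3.84 ± 0.17 (adjusted p = 3.98e-12). Mucl2 (chr15:103895855-103899312), a gene for a small mucin-like protein, went from 43.2, 35.6, 44.5 and 53 CPM to 1931, 1698, 1658 and 2814 CPM. Its log2 change was 5.52 ± 0.20 (adjusted p = 3.98e-12), and 5.32 without E18 D, which held the highest value. Mucl2 also rose by more over this day than over the day before, from 4.21 CPM at E16: the difference between the 2 steps was 2.13 on the log2 scale (adjusted p = 0.00168).

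Other products rose by smaller factors. Pip, the prolactin-induced protein of saliva, was at 496, 524, 600.4 and 602 CPM at E17 and at 3130, 2422, 2701 and 4157 CPM at E18, which gave a log2 difference of 2.48 ± 0.26 (adjusted p = 1.11e-06). Cst10, a cystatin-type protease inhibitor, rose by 2.93 ± 0.19 on the log2 scale from 10.9 to 12.2 CPM at E17 to 75.5 to 113 CPM at E18. The secretoglobin genes Scgb2b26 and Scgb2b27 rose by 4.05 ± 0.18 and 2.71 ± 0.30, with Scgb2b27 at 1200 CPM in E18 D and 368 to 453 CPM in the other E18 samples. Lpo, the salivary peroxidase that makes an antimicrobial oxidant, moved from 1845, 1794, 1942 and 1984 CPM to 2582, 2837, 2928 and 2748 CPM, a log2 change of 0.55 ± 0.16 (adjusted p = 0.0233, and up to 0.0649 without E17 A or B). Pigr, the receptor that carries immunoglobulin A across epithelium, rose by 1.64 ± 0.45 (adjusted p = 0.018, and up to 0.0552 without E17 B or C). The call for Dcpp1 rested on E18 D. Dcpp1, a demilune cell protein gene with near-identical copies, stood at 575 to 816 CPM at E17, at 1093 to 1318 CPM in E18 A to C and at 3959 CPM in E18 D, with an adjusted p of 0.0495 with that sample and 0.141 without it, and the call was also lost without E17 A, B, C or D or E18 A.

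The submandibular gland protein C gene Smgc (chr15:91838265-91861438) and the BPI fold gene Bpifa2 (chr2:154008265-154016079), the parotid secretory protein gene, took large shares of the counts. Smgc was at 29431, 27886, 27553 and 24843 CPM at E17 and at 80121, 76672, 72266 and 83331 CPM at E18. The stages were far apart and each was narrow, yet the log2 change of 1.51 ± 0.56 did not pass the test (adjusted p = 0.0821). That fit takes its estimate of the spread from all 6 stages. With E17 and E18 alone the adjusted p was 0.0249, and it was 0.0446 in the fit of all stages without E18 D. Bpifa2 was at 22126, 21708, 26156 and 24562 CPM at E17 and at 76733, 71997, 75916 and 70022 CPM at E18, and rose by 1.64 ± 0.40 (adjusted p = 0.00868). Muc19 shares its locus with Smgc, and reads in the shared exons cannot be assigned with certainty. Muc19, listed as a processed transcript, moved the other way, from 192, 196, 246 and 227 CPM to 61.3, 78.2, 84.1 and 125 CPM, a log2 change of -1.31 ± 0.33 (adjusted p = 0.0121). Muc5b, a gel-forming mucin gene, also fell, by 1.40 ± 0.44 on the log2 scale from 1.74 to 2.32 CPM at E17 (adjusted p = 0.0373), but the call was lost when any E17 sample, E18 A or E18 C was left out, with an adjusted p of up to 0.116. Among the members that did not pass were A2ml1, a protease inhibitor at 1961 to 3612 CPM at E17, 3979 to 5136 CPM in E18 A to C and 1002 CPM in E18 D, and Amy1, the amylase gene, at 0.205 to 1.26 CPM in all 8 samples.

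**Figure D2:**
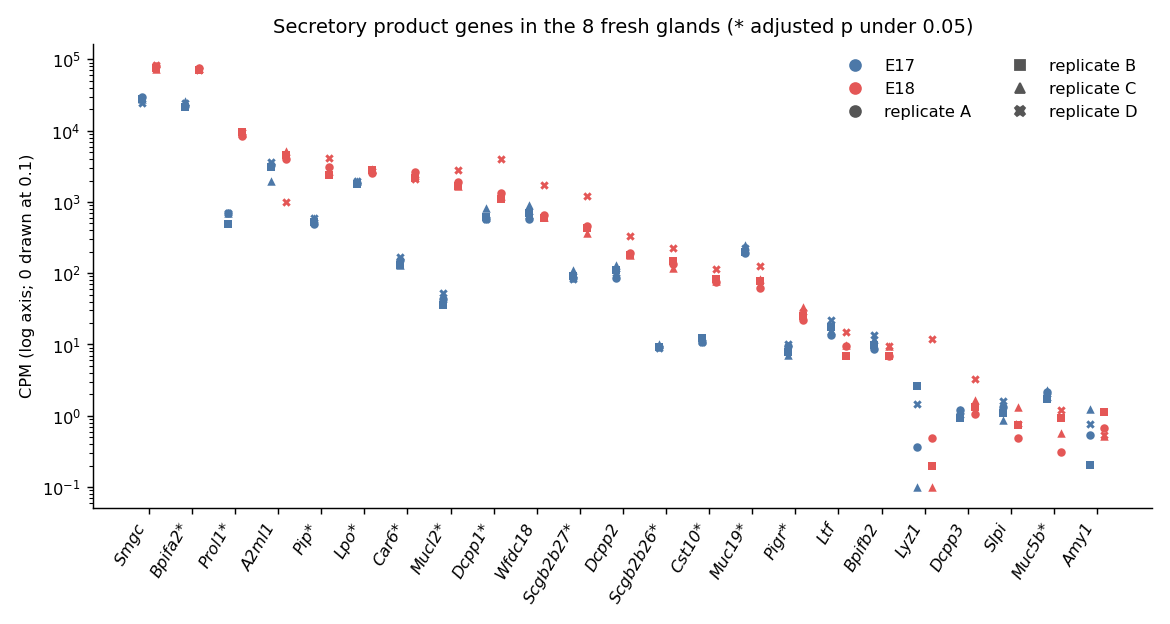
Level of the 23 secretory product genes in each of the 8 samples, as TMM-scaled CPM on a log axis, with colour for stage and marker shape for replicate. Asterisks mark an adjusted p under 0.05, and E18 D, the cross, lies above the other E18 samples for Mucl2 (2814 CPM) and Scgb2b27 (1200 CPM) and below them for A2ml1 (1002 CPM).

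Among the 15 largest rises that held in all 3 fits were genes outside that list. The uncharacterised gene 2310057J18Rik went from 0.572, 0.513, 0.728 and 1.18 CPM to 84.7, 70.8, 74.1 and 74 CPM (log2 change 6.66 ± 0.65, adjusted p = 7.54e-06), and from E13 to E16 it was at 0 in 14 of 16 samples, with 2.32 CPM in E13 B and 0.099 CPM in E16 C. Mucl1, another mucin-like gene, rose by 4.76 ± 0.29 and the secretoglobin gene Scgb1b27 by 3.29 ± 0.21. Prp2, a proline-rich protein gene, rose by 3.58 ± 0.53, from no more than 1.06 CPM at E17 to 4.05 to 9.22 CPM at E18. Agt, which encodes angiotensinogen, the precursor of angiotensin, was at 17.3, 19.5, 21.5 and 13.8 CPM at E17 and at 134, 128, 154 and 233 CPM at E18, which gave a log2 difference of 3.17 ± 0.21 (adjusted p = 2.9e-10). Genes were eligible here only if the E18 and E17 values did not overlap.

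The machinery around the products changed less than the products. Of 20 genes for acinar ion and water transport and secretagogue receptors, 7 rose and none fell, with or without E18 D, and their median log2 change was 0.23. Slc12a2, the chloride-loading cotransporter of acinar cells, went from 360.5, 383, 389 and 297 CPM to 549, 600.4, 476 and 682 CPM (log2 change 0.69 ± 0.12, adjusted p = 0.000505). Atp1b1, a beta subunit gene of the sodium pump, rose by 0.35 ± 0.07, and Adrb1, the beta-1 adrenergic receptor gene, rose by 1.07 ± 0.25. The water channel gene Aqp5 was at 485 to 723 CPM at E17 and at 505 to 815 CPM at E18 (log2 change 0.02 ± 0.19, adjusted p = 0.963). Ano1, the apical chloride channel gene, was at 194 to 212 CPM in E18 A to C, 78.9 CPM in E18 D and 162 to 215 CPM at E17, and did not pass (adjusted p = 0.847).

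Of 37 genes for import into the endoplasmic reticulum and folding, 4 rose and 3 fell, beside 5.91% and 7.09% of all genes. The median log2 change was 0.05. Without E18 D, 5 rose and 7 fell, beside 8.19% and 10.4% of all genes, and the median was -0.09. Herpud1, which acts in the disposal of misfolded proteins, rose by 0.67 ± 0.09 (adjusted p = 1.93e-05), and Sel1l, of the same route, by 0.36 ± 0.10 (adjusted p = 0.0199, and up to 0.0815 without E17 C, E17 D or E18 B). The chaperone genes Pdia4 and Calr fell by 0.47 ± 0.08 and 0.36 ± 0.08 on the log2 scale. Between the endoplasmic reticulum and the Golgi, 2 of 26 genes rose, Tmed3 and Mcfd2, a share near the 5.91% of all genes, and without E18 D 4 rose and 2 fell. Of 18 granule exocytosis genes 2 rose, and 4 without E18 D. The call for Sytl1, which helps to tether granules, was lost when any of 6 samples was left out, E18 D among them (adjusted p = 0.0428, and up to 0.114). Rab26, a small GTPase of secretory granules, went from 5.48, 4.61, 4.97 and 5.71 CPM to 13.9, 13.6, 14.8 and 20.9 CPM (log2 change 1.60 ± 0.21, adjusted p = 1.57e-05). Of 16 transcription factor genes of secretory cells none rose and 1 fell with all samples, and without E18 D 2 rose, Etv1 (0.52, adjusted p = 0.00198) and Creb3l2 (0.30, adjusted p = 0.0247), and Barx2 fell (-0.33, adjusted p = 0.00517). The fall with all samples was of Sox10, with an adjusted p of 0.0455 that became 0.0869 without E18 D and up to 0.128 without E17 A, C or D or E18 A or B.

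**Figure D3:**
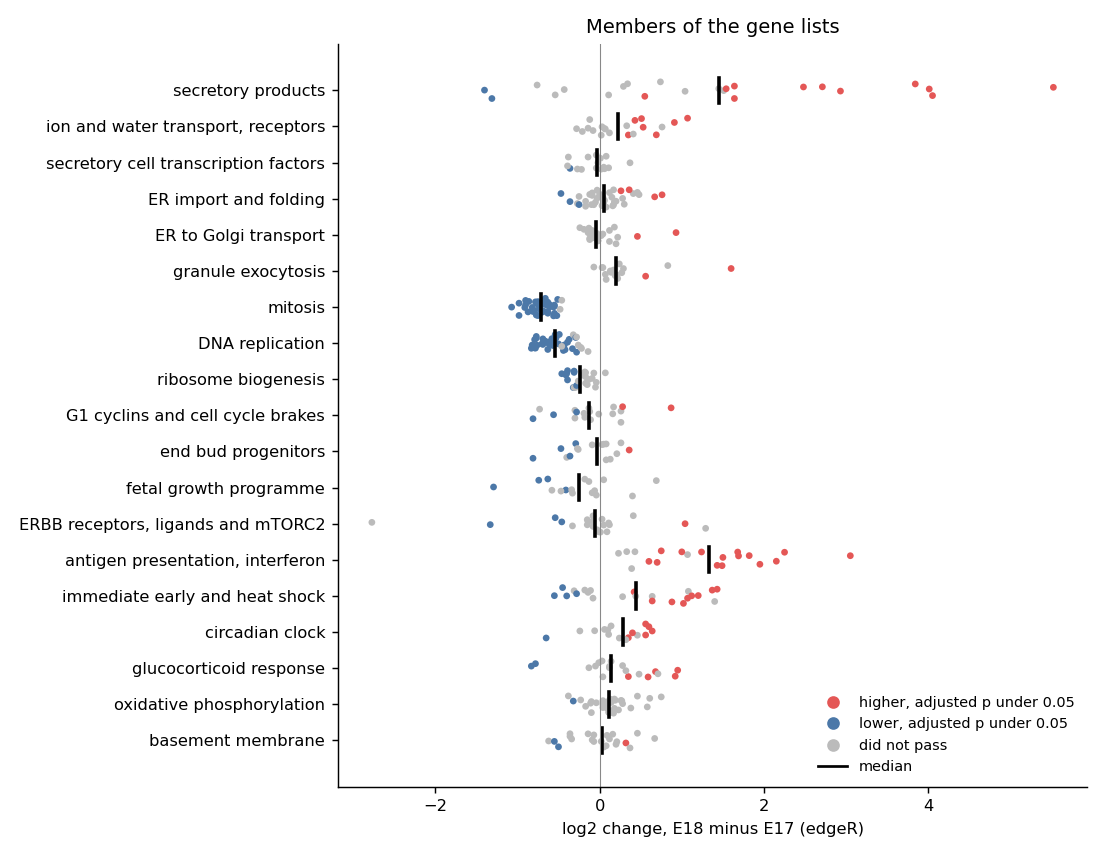
Log2 change from E17 to E18 of each tested member of 19 gene lists, with red and blue points for genes with an adjusted p under 0.05, grey for the rest, and a black bar at the list's median. The secretory products spread from -1.40 to 5.52 around a median of 1.45, while the mitosis genes sit close around -0.71.

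Cell cycle genes fell together. Of 42 mitosis genes 40 fell and none rose, with a median log2 change of -0.71, and of 39 DNA replication genes 32 fell and none rose, with a median of -0.54. Without E18 D, 42 and 37 fell. E18 D was the odd sample for the mitosis genes that did not pass with it. Birc5, which encodes survivin, a subunit of the chromosomal passenger complex, was at 103 to 141 CPM at E17, at 55.1 to 65 CPM in E18 A to C and at 168 CPM in E18 D (adjusted p = 0.186, and 7.87e-09 without E18 D). Cenpa, the centromeric histone gene, likewise stood at 60.5 to 66.3 CPM in E18 A to C and at 130.2 CPM in E18 D.

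Promoter sequence is shown for 4 of these genes because mitosis genes of vertebrates often carry CCAAT boxes and a cell cycle homology region (CHR) upstream of the start. The windows cover the 250 bases before the RefSeq start on GRCm38.p6, written on the gene's own strand with matches on either strand in capitals. The shown windows are the 3 of mitosis genes with the smallest adjusted p that had 1 window, outside the annotated gene body and called in all 3 fits, and the first such gene that held both motifs. Plk1 encodes the polo-like kinase, Bub1b a spindle checkpoint protein, Ndc80 a kinetochore protein and Ccnb2 a mitotic cyclin.
Plk1 (chr7:122159185-122159434, plus strand): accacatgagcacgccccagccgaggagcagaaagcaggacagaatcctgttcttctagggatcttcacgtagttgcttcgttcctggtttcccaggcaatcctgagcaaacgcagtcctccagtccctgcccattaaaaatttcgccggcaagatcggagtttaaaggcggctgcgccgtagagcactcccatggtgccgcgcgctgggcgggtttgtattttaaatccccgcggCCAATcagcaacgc
Bub1b (chr2:118597961-118598210, plus strand): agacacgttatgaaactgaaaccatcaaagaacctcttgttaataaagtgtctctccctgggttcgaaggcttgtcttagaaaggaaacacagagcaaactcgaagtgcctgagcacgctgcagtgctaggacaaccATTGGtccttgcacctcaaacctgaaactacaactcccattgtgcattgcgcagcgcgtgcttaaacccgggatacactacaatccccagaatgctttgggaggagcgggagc
Ndc80 (chr17:71526858-71527107, minus strand): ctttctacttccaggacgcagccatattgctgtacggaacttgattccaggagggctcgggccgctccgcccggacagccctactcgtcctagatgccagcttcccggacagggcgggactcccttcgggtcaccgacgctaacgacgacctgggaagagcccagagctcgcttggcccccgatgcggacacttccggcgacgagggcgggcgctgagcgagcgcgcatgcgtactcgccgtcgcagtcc
Ccnb2 (chr9:70421555-70421804, minus strand): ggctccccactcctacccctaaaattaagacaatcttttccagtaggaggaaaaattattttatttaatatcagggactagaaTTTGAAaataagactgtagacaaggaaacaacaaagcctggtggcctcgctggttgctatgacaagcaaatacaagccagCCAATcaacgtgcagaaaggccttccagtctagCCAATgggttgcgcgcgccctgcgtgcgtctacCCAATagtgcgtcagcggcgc
In Plk1 and Bub1b the capitals mark 1 CCAAT box each, in forward or reverse orientation, and Ndc80 has no match. In Ccnb2 they mark 1 match to the CHR letters TTTGAA, beginning 167 bases before the start, and 3 CCAAT boxes, beginning at 87, 54 and 21 bases. None overlaps another, and whether the TTTGAA match acts as a CHR was not tested. Over the windows of 35 matched mitosis genes, 78.4% held CCAAT and 35.1% held TTTGAA on either strand, and for 32 matched replication genes the shares were 60.5% and 13.2%. Of all 15475 windows of tested genes, 34.3% held CCAAT and 10.8% held TTTGAA. A match is a description of the letters and not of binding. Of the 22 windows of secretory product genes, 6 held TATAAA (27.3%, against 6.95% of the windows of tested genes) and none held CATATG, the letters bound by the acinar factor BHLHA15, which 1.73% of those windows held.

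The called mitosis genes fell by between 0.51 (Mki67) and 1.07 (Hmmr) on the log2 scale. Ccnb1, the other main mitotic cyclin gene, was at 106, 105, 108 and 101 CPM at E17 and at 62.8, 56, 59.3 and 46.2 CPM at E18 (log2 change -0.90 ± 0.08, adjusted p = 7.38e-08). Plk1 went from 115, 103, 139.5 and 118 CPM to 56.5, 66.8, 72 and 57.8 CPM (-0.91 ± 0.10, adjusted p = 1.22e-06). No E18 value of either gene reached an E17 value. For both, the fall was larger than over the day before: the difference between the steps was -0.66 for Ccnb1 and -0.75 for Plk1 on the log2 scale (adjusted p = 0.0235 and 0.0323). Aurkb, a kinase of chromosome segregation, moved from 78.2, 80, 84.8 and 81.8 CPM to 40.9, 42.7, 46.4 and 34.2 CPM (-0.98 ± 0.09, adjusted p = 4.85e-08). Bub1b, Ndc80 and Ccnb2 fell by 0.87 ± 0.10, 0.79 ± 0.09 and 0.61 ± 0.10 on the log2 scale. Mki67, the widely used proliferation marker, was at 363, 328, 315 and 334 CPM and then at 213, 276, 235 and 221 CPM (-0.51 ± 0.14, adjusted p = 0.0155, and 0.0504 without E18 A).

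Among replication genes, Rrm2, a subunit of the enzyme that makes deoxynucleotides, went from 171, 184, 183 and 169 CPM to 100.4, 106, 107 and 101 CPM (-0.77 ± 0.06, adjusted p = 1.5e-08). Uhrf1, which maintains DNA methylation at replication, went from 197, 205, 199 and 202 CPM to 110.2, 117, 122 and 102 CPM (-0.83 ± 0.07, adjusted p = 2.9e-08). Each stage was narrow for both genes and E18 D did not stand out. All 6 genes of the replicative helicase, Mcm2 to Mcm7, fell, from -0.79 ± 0.08 for Mcm5 to -0.28 ± 0.07 for Mcm6. The 7 replication genes that did not pass included Dut, Rpa2 and E2f1, each of them higher in E18 D than in the other E18 samples.

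**Figure D4:**
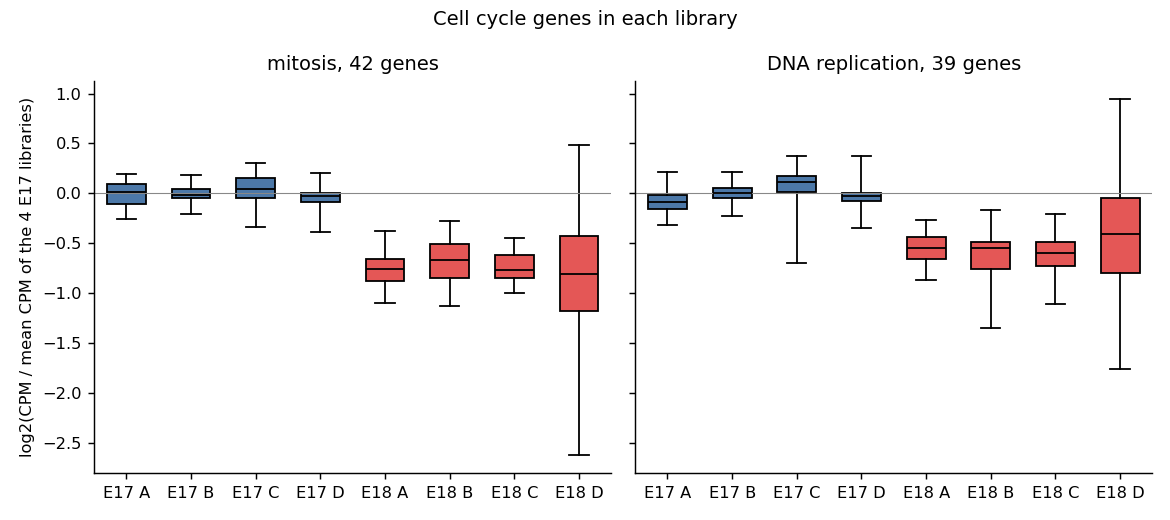
Log2 ratio of each library's CPM to the mean of the 4 E17 libraries, for 42 mitosis genes (left) and 39 DNA replication genes (right), as boxes for the quartiles with the median and whiskers to the lowest and highest gene. The boxes of E18 A, B and C lie below those of all 4 E17 libraries, and E18 D has the widest spread.

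Related lists moved less, and their counts stand beside 5.91% of all genes risen and 7.09% fallen (8.19% and 10.4% without E18 D). Of 24 ribosome biogenesis genes 9 fell and none rose, with a median of -0.24, and 14 fell without E18 D. Nop56, a core protein of small nucleolar particles, went from 144, 145, 166 and 147 CPM to 119, 104, 119 and 116 CPM (-0.40 ± 0.07, adjusted p = 0.00036). Of 18 tested genes for G1 cyclins and cell cycle brakes, 2 rose and 3 fell, and without E18 D 2 rose and 4 fell. Ccnd1, cyclin D1, was at 260.4, 242, 196 and 256 CPM at E17 and at 155, 160.3, 171 and 56.6 CPM at E18 (-0.81 ± 0.20, adjusted p = 0.00753), and Btg2, an antiproliferative gene, rose by 0.87 ± 0.12. Of 16 tested fetal growth genes 4 fell, with or without E18 D, among them Hmga2, a chromatin protein of embryonic cells, by 1.29 ± 0.14, and the RNA-binding protein gene Igf2bp1 by 0.74 ± 0.09. Among 16 genes of end bud progenitors, calls were 4 lower and 1 higher (4 and 2 without E18 D), with Bmp7, a signalling ligand, at -0.47 ± 0.09 and Dusp6, a brake on ERK signalling, at 0.36 ± 0.07. Stra6, the receptor for retinol binding protein, fell at every step of the series by its mean levels, from 170.4 CPM at E13 to 18.9 CPM at E16, then to 9.64 to 11.4 CPM at E17 and 2.29 to 4.14 CPM at E18 (-1.63 ± 0.12 over the last day, adjusted p = 3.18e-09).

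With all samples, none of the ERBB receptors, which the series is about, passed the test. Erbb3 (chr10:128567523-128589652) was at 169, 154, 147 and 151 CPM at E17 and at 154, 177, 172 and 85.2 CPM at E18 (log2 change -0.08 ± 0.13, adjusted p = 0.766). Only E18 D lay outside the E17 range on the low side. Erbb2, the partner that ERBB3 signals with, was at 139 to 159 CPM and then at 149 to 172 CPM (0.09 ± 0.07, adjusted p = 0.438), and Egfr did not pass either (-0.08 ± 0.10, adjusted p = 0.684). Erbb4 was at 0.164, 0.154, 0.199 and 0.257 CPM at E17 and at 0.802, 0.444, 0.348 and 0.306 CPM at E18. The stages did not overlap at these low levels (1.29 ± 0.47, adjusted p = 0.0756), and without E18 D the gene passed (1.43, adjusted p = 0.0491). Of the 22 tested receptors, ligands and mTORC2 genes, 1 rose and 3 fell, beside 5.91% and 7.09% of all genes. Without E18 D 2 rose and 2 fell, beside 8.19% and 10.4% of all genes. Nrg1 (chr8:31814551-32884029), the ligand of ERBB3, was at 8.34, 8.35, 10.1 and 8.49 CPM at E17 and at 6.47, 6.11, 5.05 and 6.65 CPM at E18. All 4 E18 values lay below the 4 E17 values (-0.54 ± 0.14, adjusted p = 0.0124). Egf, the epidermal growth factor gene, rose from 36.7, 30.8, 26 and 29.5 CPM to 68.3, 84 and 74 CPM in E18 A to C, with E18 D at 26.3 CPM (1.04 ± 0.26, adjusted p = 0.0104, and 1.29 without E18 D). Akt1, a kinase that mTORC2 phosphorylates, fell by 0.46 ± 0.14 (adjusted p = 0.029, and up to 0.0795 without E17 C or D), with E18 D again the lowest at 215 CPM, and the scaffold gene of mTORC2, Rictor, did not pass (0.41 ± 0.14, adjusted p = 0.0533).

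Duct transcripts rose in part. Klk1, the tissue kallikrein of salivary ducts, went from 62.8, 93.1, 86.7 and 87.7 CPM to 378, 337, 248 and 513 CPM (2.16 ± 0.24, adjusted p = 2.9e-06). The E18 values were all above the E17 values. Of 15 luminal duct markers 3 rose and 1 fell, and without E18 D 5 rose and 3 fell. The median log2 change of that list was 0.24, and 0.18 without E18 D. Over all genes 5.91% rose and 7.09% fell, and 8.19% and 10.4% without E18 D. Besides Klk1, the epithelial sodium channel gene Scnn1b rose by 0.78 ± 0.15 and the sodium exchanger gene Slc9a3 by 1.47 ± 0.49 (adjusted p = 0.0464, lost without any sample but E18 D, up to 0.127), and Gabrp fell by 0.93 ± 0.25. Of 10 tested ionocyte markers 2 rose, Fxyd2 by 1.39 ± 0.24 and Hepacam2 by 0.79 ± 0.21, and without E18 D 4 rose. Of 11 basal duct markers none was called, and 1 rose without E18 D. Of 11 myoepithelial and smooth muscle markers 1 rose (1 rose and 1 fell without E18 D), Myh11, a smooth muscle myosin, which was at 53.8 to 71.4 CPM at E17, at 99.2 to 135 CPM in E18 A to C and at 45.6 CPM in E18 D. Its adjusted p was 0.0407, it was 1.97e-05 without E18 D, and the call was lost when any other sample was left out, up to 0.13.

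Most antigen presentation and interferon response genes tested rose. Of 20 tested, 15 rose and none fell, with a median log2 change of 1.34, and without E18 D 14 rose and the median was 0.84. Irf7, a transcription factor of the interferon response, went from 4.78, 4.15, 4.04 and 5.04 CPM to 9.37, 17.8, 10.5 and 20.4 CPM (1.68 ± 0.23, adjusted p = 2.32e-05). Ifi27 was at 46.4, 55.8, 53.5 and 50.1 CPM and then at 119, 97.9, 111 and 228 CPM (1.43 ± 0.19, adjusted p = 1.52e-05). The stages were separate for both, and E18 D was highest in both. Isg15, a ubiquitin-like modifier, rose by 2.25 ± 0.34 from low levels of 1.27 to 1.59 CPM, and B2m, the light chain of class I molecules, rose by 0.60 ± 0.11. Of the class I genes H2-K1 and H2-D1, H2-K1 rose (adjusted p = 0.0107) and H2-D1 did not pass (0.43 ± 0.24, adjusted p = 0.258). Stat2 did not pass either (adjusted p = 0.148, and 0.00371 without E18 D). The class II genes H2-Ab1, H2-Eb1 and Cd74 did not pass, with adjusted p of 0.119, 0.652 and 0.405.

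Macrophage markers rose beside them. Of 18 macrophage genes 9 rose and none fell, with 11 risen without E18 D, and their summed level was 307 to 374 CPM at E17 and 466 to 629.6 CPM at E18. C1qc, a subunit of the complement component C1q, went from 22, 29.5, 31.7 and 28.6 CPM to 43.7, 40.2, 48.5 and 72.9 CPM (0.88 ± 0.17, adjusted p = 0.000823). Csf1r, the receptor that macrophages need to survive, was at 30.6 to 37.3 CPM at E17, at 51.4 to 56.8 CPM in E18 A to C and at 34.5 CPM in E18 D (0.49 ± 0.13, adjusted p = 0.0112). Of 6 tested mast cell markers 2 rose, with or without E18 D, the protease genes Mcpt4 by 1.60 ± 0.31 and Tpsab1 by 1.37 ± 0.28. The part of macrophages in the rise of the interferon response genes was not tested. No lymphocyte or neutrophil marker was called, with 8 tested of each, and without E18 D 1 lymphocyte marker fell.

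Other cell types of the gland differed in how many markers were called, and most markers did not pass. Rises of fibroblast and mesenchyme markers, and falls of erythroid and of cartilage and bone markers, were above the shares of all genes given below. Of 27 fibroblast and mesenchyme markers 5 rose and none fell, and 9 rose without E18 D. Postn, a matrix protein gene, went from 376, 340, 324 and 334 CPM to 559, 589, 493 and 391 CPM (0.56 ± 0.13, adjusted p = 0.0038), with E18 D the lowest of its stage. Pi16, a marker of adventitial fibroblasts, rose by 0.99 ± 0.21. Of 22 basement membrane genes 1 rose and 2 fell, with Lamb2, a laminin chain, at 0.32 ± 0.08 and Col4a6, a collagen chain, at -0.55 ± 0.13, and without E18 D 6 rose and 1 fell. Of 16 blood endothelial markers 1 rose, Vwf, by 0.59 ± 0.11, and 2 without E18 D. Of 21 tested neuron markers 1 fell, and 2 without E18 D. With 5.91% of all genes risen and 7.09% fallen (8.19% and 10.4% without E18 D), the endothelial and neuron counts are near the background. So are the basement membrane counts with all samples. Of 16 Schwann cell markers 3 fell, and 2 without E18 D, and the median log2 change of that list was 0.05 (0.03 without E18 D). Among the 3 was Sox10, whose call was lost when any of 6 samples was left out. Of 10 tested erythroid markers 3 fell (4 without E18 D), among them Alas2, the heme synthesis enzyme of red cells, by 1.06 ± 0.20, while the summed level of that list was 5386 to 11221 CPM at E17 and, at E18, 3040 to 4588 CPM in A to C and 13781 CPM in D. Of 11 tested cartilage and bone markers 3 fell and 1 rose (3 and none without E18 D), with the cartilage collagen gene Col9a1 at -0.70 ± 0.10.

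Immediate early genes varied within E18. The counts of this paragraph stand beside 5.91% of all genes risen and 7.09% fallen (8.19% and 10.4% without E18 D). Of 23 immediate early and heat shock genes 9 rose and 4 fell, and without E18 D 8 rose and 4 fell. Jun was at 179, 185, 201 and 173 CPM at E17 and at 342, 508, 219.8 and 288 CPM at E18 (0.88 ± 0.15, adjusted p = 0.000368), and Fos was at 33.8 to 62.7 CPM at E17 and at 105, 219, 36 and 139 CPM at E18 (adjusted p = 0.0148, and up to 0.0738 without E17 D or E18 B). E18 B was highest and E18 C lowest of its stage for Jun and Fos. The chaperone genes Hsph1 and Hsp90aa1 fell by 0.55 ± 0.11 and 0.45 ± 0.11. Of 16 circadian clock genes 6 rose and 1 fell (8 and 1 without E18 D), with the transcription factor gene Tef at 0.56 ± 0.08, the repressor gene Cry2 at 0.64 ± 0.09 and Hlf at -0.65 ± 0.11. Of 19 glucocorticoid response genes 5 rose and 2 fell (5 and 3 without E18 D), with Tsc22d3 at 0.68 ± 0.11 and Angptl4 at -0.78 ± 0.12. Of 33 oxidative phosphorylation genes 1 fell (3 without E18 D), Sdhc (adjusted p = 0.0231, and up to 0.113 without E17 C, E18 B or E18 C), and the median of that list was 0.12 with E18 D and -0.14 without it. Of 26 sterol and lipid synthesis genes 1 rose and 1 fell (2 and 3 without E18 D): Insig1, a brake on sterol synthesis, rose by 0.69 ± 0.08 and Elovl6, a fatty acid elongase, fell by 0.62 ± 0.16.

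A set of genes moved up and down between neighbouring stages. The test of the difference between the E17 to E18 step and the E16 to E17 step, which share the E17 samples, called 115 genes, 0.696% of those tested, and 363 without E18 D. Ceacam2 (chr7:25516042-25539857), an adhesion molecule gene with a close relative beside it in the genome, was at 51.7, 19.9, 43.4 and 41.1 CPM at E17 and at 0.0617, 0.197, 0 and 0.153 CPM at E18. Its mean was 0.126 CPM at E16, 0.178 CPM at E15, 6.8 CPM at E14 and 2.14 CPM at E13. The log2 change was -8.46 ± 0.43 over the last day (adjusted p = 3.98e-12) and 8.22 ± 0.40 over the day before. The processed pseudogene BC002163 (chr16:42955631-42955949) did the opposite, at 16.9 CPM on average at E16, 0.245 to 0.397 CPM at E17 and 22.6 to 56.1 CPM at E18 (6.67 ± 0.39, adjusted p = 6.89e-11). Rpsa-ps10, a pseudogene of a ribosomal protein, was at 63.3 to 162 CPM at E17, at 5.62 to 7.95 CPM in E18 A to C and at 23.3 CPM in E18 D (-3.32 ± 0.35, adjusted p = 1.76e-06), with means of 4.23 to 7.98 CPM from E13 to E16.

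Smad2, a transducer of TGF-beta signals, was at 25.3, 39, 21.9 and 22.9 CPM at E17 and at 4.75, 6.26, 4.52 and 1.83 CPM at E18 (-2.62 ± 0.21, adjusted p = 1.5e-08), after means of 64.6, 29.6, 40.1 and 14.1 CPM at E13 to E16. Nfatc2, a calcium-regulated transcription factor gene, stayed at means of 3.28 to 6.65 CPM from E13 to E16 and at 6.49 to 7.51 CPM at E17, and reached 40.8, 48.6, 51.7 and 30.6 CPM at E18 (2.59 ± 0.17, adjusted p = 2.51e-10). No E18 value of either gene overlapped the E17 values, and E18 D was the lowest of its stage for each. Pseudogenes and genes with near-identical copies share reads, and no source used here says how such reads were counted. The values of BC002163, Rpsa-ps10 and Ceacam2 are uncertain for that reason.

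**Figure D5:**
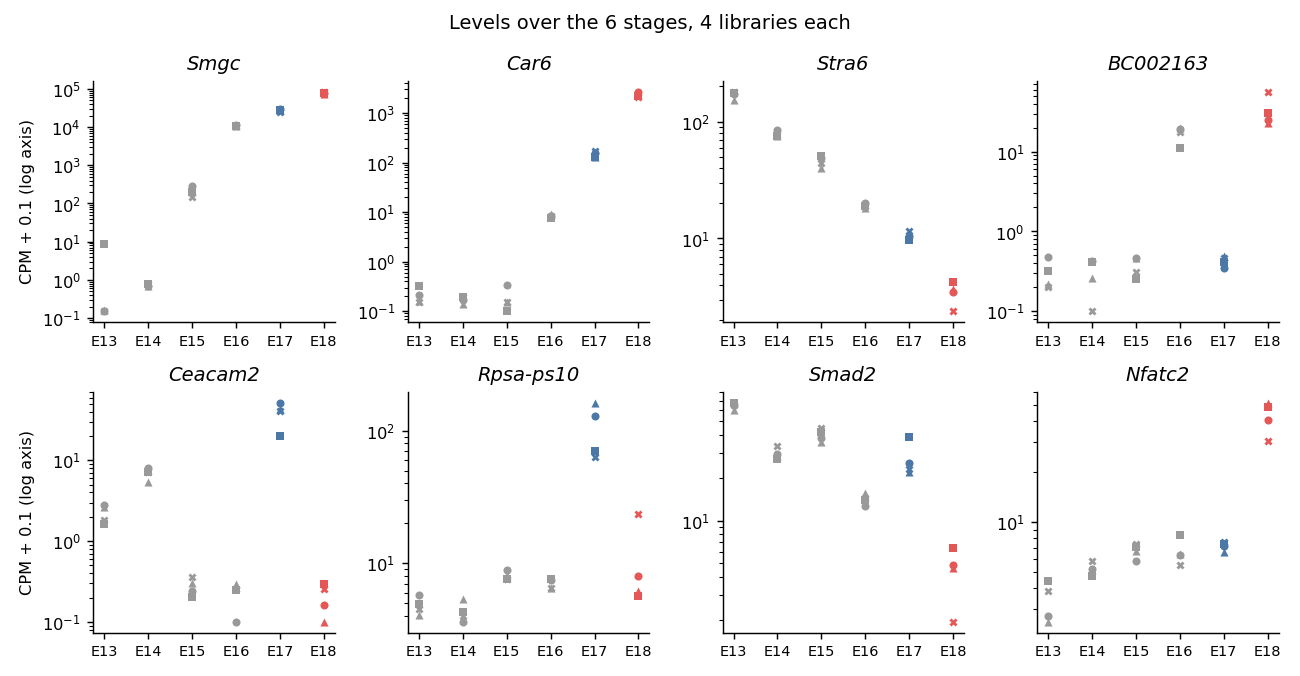
Level of 8 genes in the 4 libraries of each stage from E13 to E18, as TMM-scaled CPM plus 0.1 on a log axis, with marker shape for replicate and colour for E17 (blue) and E18 (red). Smgc and Car6 climb to E18 and Stra6 declines, while Ceacam2, BC002163 and Rpsa-ps10 switch between neighbouring stages and Nfatc2 is high at E18 alone.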

How the data were processed

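The authors deposited a table of raw counts per gene for the 24 glands, made, per the submitters' processing notes, with fastp, STAR and featureCounts on the mm10 build. No source used here gives the versions, the gene annotation, whether strand was used, how reads with several matches were counted, or whether poly(A) RNA was selected. Per the labels' protocols, the library kit was NEBNext Ultra. Symbols and coordinates were looked up by Ensembl identifier in GENCODE M21 (GRCm38), for 34490 of 35275 genes. Promoter windows are from RefSeq on GRCm38.p6.

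The deposited counts went into edgeR 4.0.16 (R 4.3.3): TMM factors, a filter on low counts by stage, a robust quasi-likelihood fit of all 24 glands with 1 coefficient per stage, and Benjamini-Hochberg adjustment over all 16521 genes. A gene was called at an adjusted p under 0.05. Each ± in the report is the SE of a log2 change, taken as the size of the change over the square root of its F statistic. Alternatives used limma 3.58.1 and DESeq2 1.42.0. On simulated counts of 16313 genes for this comparison, 31.3%, 79.1% and 90.9% of genes changed by 1.5, 2 and 4 times were called. Of the calls on those counts, 3.6% were false. Whether these rates hold for the deposited counts, with E18 D apart from its group and length trends in single libraries, was not tested.

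Total counts ranged from 16809492 to 24515242 over the 8 samples. No 2 samples of a stage agreed within sampling noise, so each was counted separately.

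The members and the 39 gene lists were chosen with earlier results of these data known. Genes were picked for naming by rule, and not all of those picked are named here, least of all the largest falls. The rule took the 15 largest rises and the 15 largest falls with symbols. These had to be called in 3 fits, not overlapping, and with a mean of at least 5 CPM in the higher stage. From the lists it took up to 4 called members per direction, fewer for some lists, and up to 2 that did not pass. Other list members named here, such as Mki67, Ndc80, Pip, Pigr, Lpo, Dcpp1, Adrb1, B2m, Fos and Ucp1, were chosen after their values were seen. The result of 1 list member is not reported here.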

Additional observations from a re-analysis of the deposited data

Results flagged for a closer look

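In groups of 4, single samples lay far from the other 3 of their stage in the following cases. Chance sets aside about 1 in 20 groups this way. E18 D was the high sample for Scgb2b27 (1200 CPM against 368 to 453), Rpsa-ps10 (23.3), Rps2-ps10 (5.43), Rps3a1 (476), Rplp1 (16416 against 3372 to 4120), Rplp0 (8933), Aqp5 (815), Tmed3 (1036), Rab26 (20.9), Dut (139), Rpa2 (93.3), Birc5 (168), Cenpa (130.2), Tsc22d3 (76), Ifi27 (228), Isg15 (12.7), C1qa (157), C1qb (63.7) and Tyrobp (26.4). E18 D was the low sample for Ano1 (78.9 CPM against 194 to 212), Ccnd1 (56.6), Hsph1 (20.6), Ngfr (11.2) and mt-Co1 (1708 against 5970 to 6520). Other single samples were E17 B for Prol1 (497 CPM, low), E17 D for Tpm3-rs7 (128, high), E18 A for Sdhc (171, high), and E17 A for Kcnma1 (18.9), Per3 (20.3) and Acta1 (332), all high. E17 C was high for Nop56 (166), Sdhc (216), Nrg1 (10.1) and Krt10 (9.67) and low for Hsph1 (35.6) and Erbb2 (139).

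The change from E17 to E18 differed from the change from E16 to E17, by the test of the difference itself, for 115 genes. Given as the later step minus the earlier on the log2 scale, the differences were 12.36 for BC002163, 10.06 for Gm10320, 6.45 for Gm3608, 3.78 for Mucl1, 3.58 for Gm13443 and 3.23 for Gm12751. They were -16.68 for Ceacam2, -8.43 for Rps2-ps10, -7.25 for Rpsa-ps10, -3.58 for Smad2, -2.98 for Dynlt1a and -2.57 for Rps3a1. Of these 12 genes, 6 are pseudogenes by their annotation. Rps2-ps10 was at 178, 352, 579 and 37.8 CPM at E17 and at 2.03 to 5.43 CPM at E18.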

How the results depend on the processing

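No named gene that was called changed direction under any alternative. Of 211 called list members, 56 lost the call with at least 1 replicate left out, and 17 without E18 D. Of the named genes with a value, 40 lost their call with E17 and E18 alone. The count of called genes, 2147 in all, was 3818 with library totals alone (450 higher, 3368 lower), 3519 with limma voom and sample weights (1678, 1841) and 647 with E17 and E18 alone (345, 302), where leaving out E18 D gave 2645. Leaving out 1 replicate gave 1606 to 3109 calls, 701 to 1371 of them higher and 905 to 1738 lower, with the most calls without E18 D. Chosen after seeing the data, removing a gene-length trend per library gave 1543 higher and 1181 lower. Without E18 D that fit gave 3368 (1890 higher), limma voom 3687 (1768, 1919) and DESeq2 3412 (1744, 1668). With DESeq2 on all samples, 54.3% of calls were higher, against 45.5%, with the length trend removed 56.6%, and with no filter on low counts 38.2%. The difference between steps, 115 genes, became 38 with E16 to E18 alone, 48 to 363 with 1 replicate left out (51, 48 and 56 without E17 B, C and D, 363 without E18 D), and 372, 521 and 537 without E18 D with the length trend removed, limma voom and DESeq2. The cause was not tested.

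Replicate letters gave no uniform pairing of the stages: the correlations of same-letter deviations were 0.231, 0.0408, -0.202 and -0.202 for A to D. E17 A and B correlated best with their own letter at E18, and E17 C and D with each other's letter. These deviations also carry the length trends of single libraries, and whether letters mark litters or batches was not tested. With a replicate block the fit called 1875 genes (815 higher, 1060 lower), the block in the fit of E17 and E18 alone called 41 (33, 8), and the difference between steps became 76.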
